A study of Mus musculus with 6 samples.

Results

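The miRNAs that mark blood cells and vessel walls were followed through the 3 zones of the mouse femoral growth plate, a cartilage that itself carries no vessels and meets them at the far edge of its hypertrophic zone. The set was chosen by name on the array and holds 10 of the 690 mouse miRNAs measured: mmu-miR-451, mmu-miR-144 and mmu-miR-486 of red cells, mmu-miR-223, mmu-miR-142-3p, mmu-miR-142-5p, mmu-miR-150 and mmu-miR-155 of white cells, and mmu-miR-126-3p and mmu-miR-126-5p of endothelium. All 10 were on the array, and the prefix mmu-, for mouse, is left out from here on. The mice were C57BL/6, 12 days old, with no allele or treatment named, and the proliferative, prehypertrophic and hypertrophic zones were microdissected and hybridised on 2 one-colour Agilent arrays each, 6 arrays in all. Each array received 100 ng of total RNA from a pool of 5 growth plates. The arrays form 2 independent hybridisations per zone by the study's design text. Which animals entered which pool is not given in the sources used here, so p-values measure the spread between these arrays, which may be partly technical. In such bulk RNA, fewer cells of a type and less RNA per cell cannot be told apart.

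miR-451 and miR-144 are processed from one primary transcript switched on by GATA1 during red cell formation. miR-451 is unusual in being cut by Argonaute 2 instead of Dicer, and it is very abundant in red cells. miR-126 lies in an intron of Egfl7, a gene of endothelial cells, and its -3p arm supports the response of vessels to VEGF. miR-223 is abundant in neutrophils and other myeloid cells, miR-142 is made across white cells, miR-150 in mature lymphocytes, and miR-155 in activated lymphocytes and macrophages.

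Mature sequences matched by name in RefSeq (build GRCm38.p6) for 7 of the 10, and none of the 7 shared a seed. Those of the 3 members with measurable zone contrasts are shown, with miR-144 as the neighbour of miR-451. Each runs 5′ to 3′, with the seed, bases 2 to 8, in capitals.
miR-451 (miR-451a, chr11:78073186-78073207, plus strand): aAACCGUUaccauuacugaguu
miR-144 (miR-144-3p, chr11:78073047-78073066, plus strand): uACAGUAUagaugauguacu
miR-126-3p (miR-126a-3p, chr2:26591402-26591423, plus strand): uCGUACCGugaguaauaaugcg
miR-223 (miR-223-3p, chrX:96242884-96242905, plus strand): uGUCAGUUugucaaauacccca
The Mir144 and Mir451a hairpins lie 99 bases apart on the same strand. The Mir126a hairpin lies inside the span of Egfl7 and the Mir223 hairpin inside that of F630028O10Rik.

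Each member had 2 probes, and each probe was printed in 10 spots per array. A probe was called well above background on an array where most of its spots not flagged as outliers carried the scanner software's flag of that name. The flag was set on 24.2% to 27.9% of all spots of an array that carry miRNA probes, and 226 miRNAs were detected on both arrays of some zone and could be tested. Signals are given in scaled units, the background-subtracted spot signal averaged over a probe and divided by a scaling factor per array that averages 1 over the arrays (geometric mean), and may fall below 0. Before log2 was taken, signals under a floor of 12.66 units (3.66 on the log2 scale) were set to it. The cartilage miRNAs miR-140, miR-140*, miR-455 and miR-455* were well above background on all 6 arrays. Of 4 skeletal muscle miRNAs and 3 of smooth muscle and pericytes on the array, 0 were so on any array. Over the whole array, 63.2% of miRNAs were well above background on no array. A separate flag of the scanner software, set per miRNA, marked the skeletal muscle miR-133b on 1 array.

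Of the blood and endothelial miRNAs, miR-451, miR-126-3p and miR-223 were brightest on the hypertrophic arrays, and miR-486 was detected with no such order. Of the 10, 6 were well above background on no array by either probe: miR-144, miR-142-3p, miR-142-5p, miR-150, miR-155 and miR-126-5p. This is near the share over the whole array, where 436 of 690 miRNAs (63.2%) were so and 36.8% were well above background on at least 1 array. Of the 6 arrays, miR-451 was well above background on 5, miR-223 on 3, and miR-126-3p and miR-486 on 2 each. The scanner software's own flag per miRNA, which pools the probes, marked them on 5, 6, 2 and 3 arrays in that order. It left the same 6 miRNAs undetected and marked the other 4 on at least 1 array, as it did 44.5% of all 690.

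**Figure D1:**
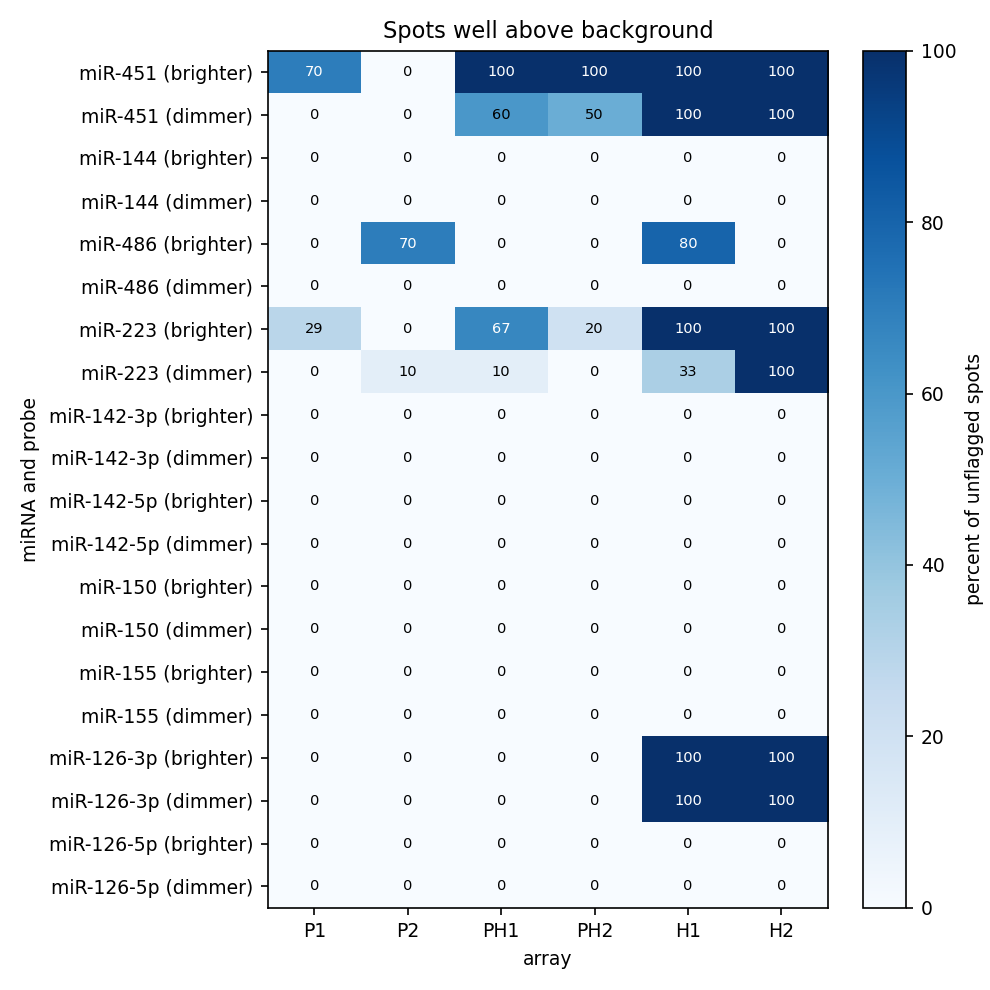
Percent of unflagged spots well above background (colour and number) for both probes of each member (rows) on each array (columns; P proliferative, PH prehypertrophic, H hypertrophic). miR-126-3p is at 0 outside the hypertrophic arrays, the brighter probe of miR-451 is at 0 on P2 alone, and both probes of 6 members are at 0 on every array.

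Among the red cell miRNAs, miR-451 showed the widest separation of zones. Its brighter probe read 13.8 and 9.77 scaled units on the proliferative arrays, 28.6 and 26.7 on the prehypertrophic arrays and 226 and 254 on the hypertrophic arrays. The 3 zones did not overlap, and each step was larger than the difference between the arrays of either zone it joins. The spots of the probe on 1 array had an SD of 1.70 and 1.63 units in the proliferative, 3.24 and 2.09 in the prehypertrophic and 10.8 and 16.01 in the hypertrophic zone. The dimmer probe gave the same order, at 3.90 and 4.75, then 14.1 and 13.2, then 111 and 132 units.

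In the fit over all 226 tested miRNAs (limma, Benjamini-Hochberg adjustment), the hypertrophic level of miR-451 was 18.1 times the proliferative one (log2 difference 4.18, SE 0.25, adjusted p = 1.91e-06). In that comparison 14.6% of tested miRNAs passed an adjusted p of 0.05, 5.75% as higher and 8.85% as lower. Only 1 of the 2 proliferative arrays was well above background for miR-451, so the floor enters this size. Against the prehypertrophic zone the hypertrophic level was 8.68 times as high (log2 difference 3.12, SE 0.25, adjusted p = 3.36e-05), a contrast in which 1.33% of tested miRNAs passed. That call was lost in 1 of 23 other settings, the deposited value table, where the difference was 2.92 (adjusted p = 0.0998). The prehypertrophic arrays shared row 2 of the slide with the second proliferative array, and the hypertrophic arrays shared row 1 with the first. With the row as a block the hypertrophic minus prehypertrophic difference was 2.99 (adjusted p = 0.0352). Row and zone cannot be told apart in this contrast. The row effect in that fit rested on the proliferative arrays, the only zone with an array in each row.

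Between the proliferative and prehypertrophic zones the log2 difference of miR-451 was 1.06 (SE 0.25, adjusted p = 0.0553). It missed the threshold, which 2.21% of tested miRNAs passed. This value turned on how the dim proliferative signals were read, and it passed in 5 of 23 other settings. It was 0.11 by the dimmer probe (limma adjusted p = 0.854) and 0.59 with the mean of all probes (limma adjusted p = 0.217). Another background correction, normexp, gave 0.06 (limma adjusted p = 0.76). With 0.5 times the floor it was 1.25 (adjusted p = 0.0187), with the scanner software's total signal per miRNA 2.32 (adjusted p = 0.00384), and with 2 times the floor 0.13 (adjusted p = 0.847). That total signal was 8.39 ± 1.80 units (the software's error) on the first proliferative array. On the second, where the software did not detect miR-451, it was listed at 0.1, and it read 29.0 ± 3.39 and 28.3 ± 3.34 on the prehypertrophic arrays.

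**Figure D2:**
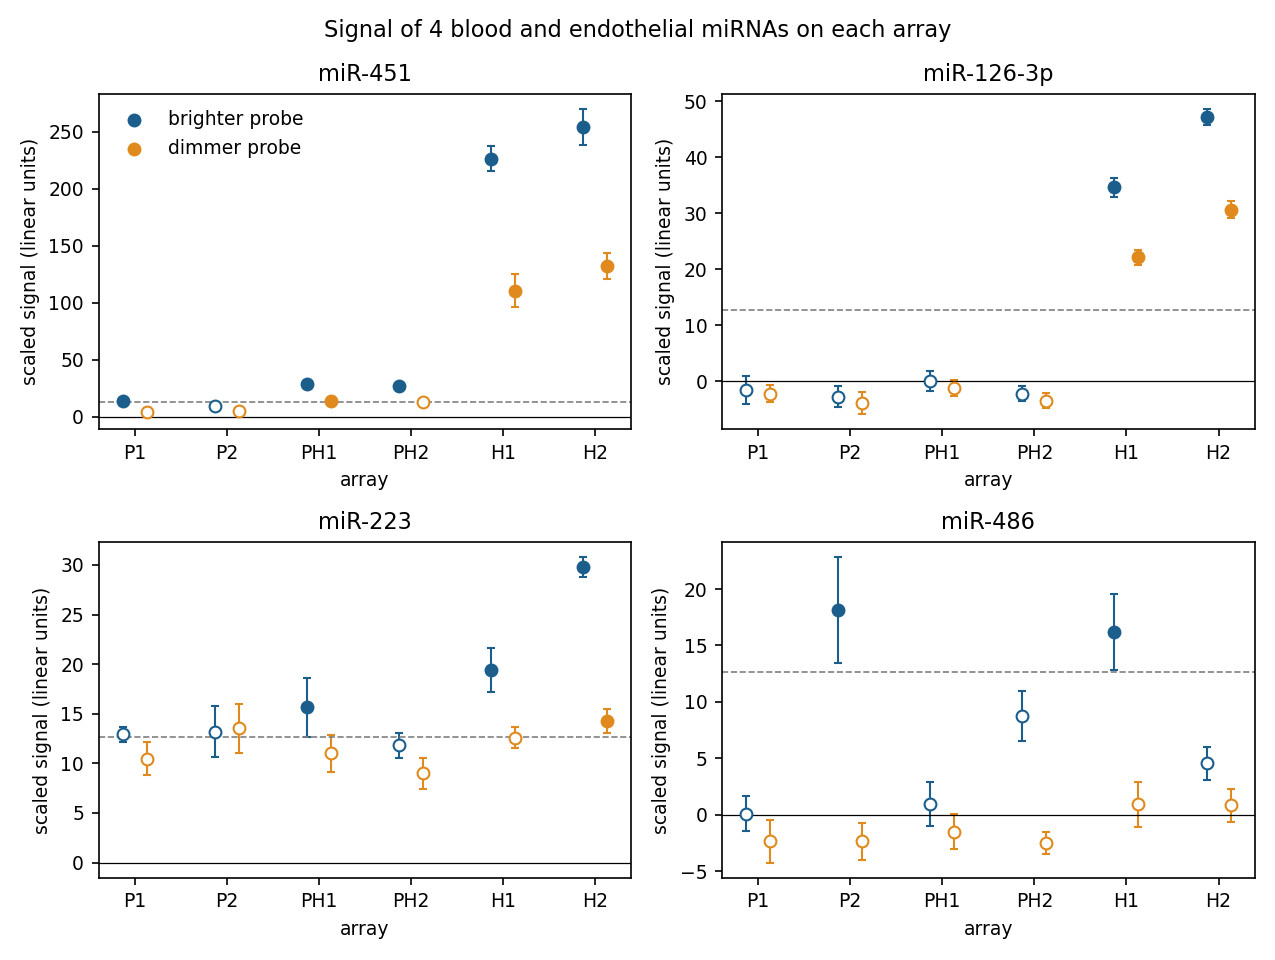
Scaled signal (linear units) of the brighter (blue) and dimmer (orange) probe of miR-451, miR-126-3p, miR-223 and miR-486 on each array (P proliferative, PH prehypertrophic, H hypertrophic), with filled points well above background, open points not, bars of 1 SD over the spots of an array and the floor of 12.66 units dashed. miR-451 and miR-126-3p separate the hypertrophic arrays from the rest by both probes, whereas miR-486 is high on P2 and H1.

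miR-144, encoded next to miR-451, did not rise out of the background in any zone. Its brighter probe read -5.88 and -6.38 units on the proliferative, -3.99 and -5.04 on the prehypertrophic and -3.35 and -2.40 on the hypertrophic arrays. All 6 values lay below the median negative control spot of their array, which lay at 1.78 to 2.995 scaled units. Among the 1416 probes that were well above background on no array, this probe stood at percentile 5.6 and 7.8 in the proliferative, 13.6 and 13.1 in the prehypertrophic and 23.2 and 36.8 in the hypertrophic zone. Its rank was thus highest on the hypertrophic arrays, at signals with no level that could be tested. Levels of different miRNAs cannot be compared on this array, since probes differ in brightness, and no ratio of miR-144 to miR-451 follows from these values.

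miR-486, a further red cell miRNA that is also made in muscle, did not follow the zones. Its brighter probe read 0.091 and 18.1 units on the proliferative, 0.926 and 8.74 on the prehypertrophic and 16.2 and 4.55 on the hypertrophic arrays. The zones overlapped, and the arrays of 1 zone differed by more than the zones did. Within an array the spots agreed: on the second proliferative array they spanned 10.2 to 23.0 units with 7 of 10 well above background, and on the first -1.75 to 2.88 with 0 of 9. Its dimmer probe was well above background on no array.

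The arrays on which miR-486 read higher were those with title numbers 16 to 18, 1 of each zone. The prehypertrophic one among them was not well above background. Those with numbers 13 to 15 read lower. No label says whether the runs of numbers are the separate hybridisations. All 3 arrays of the later numbers lay above all 3 of the earlier ones for the brighter probes of miR-486 and miR-155, 2 of the 10 members, a pattern that 7.97% of the 690 brightest probes showed. The reverse held for 0 members and 4.49% of the 690. For miR-155 both probes showed it, and it was seen in 4.8% of the 1416 probes well above background on no array. The brighter one read 1.64, 0.568 and 4.08 units on the later arrays and 0.177, -0.610 and -0.00044 on the earlier ones, all under the level well above background.

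**Figure D3:**
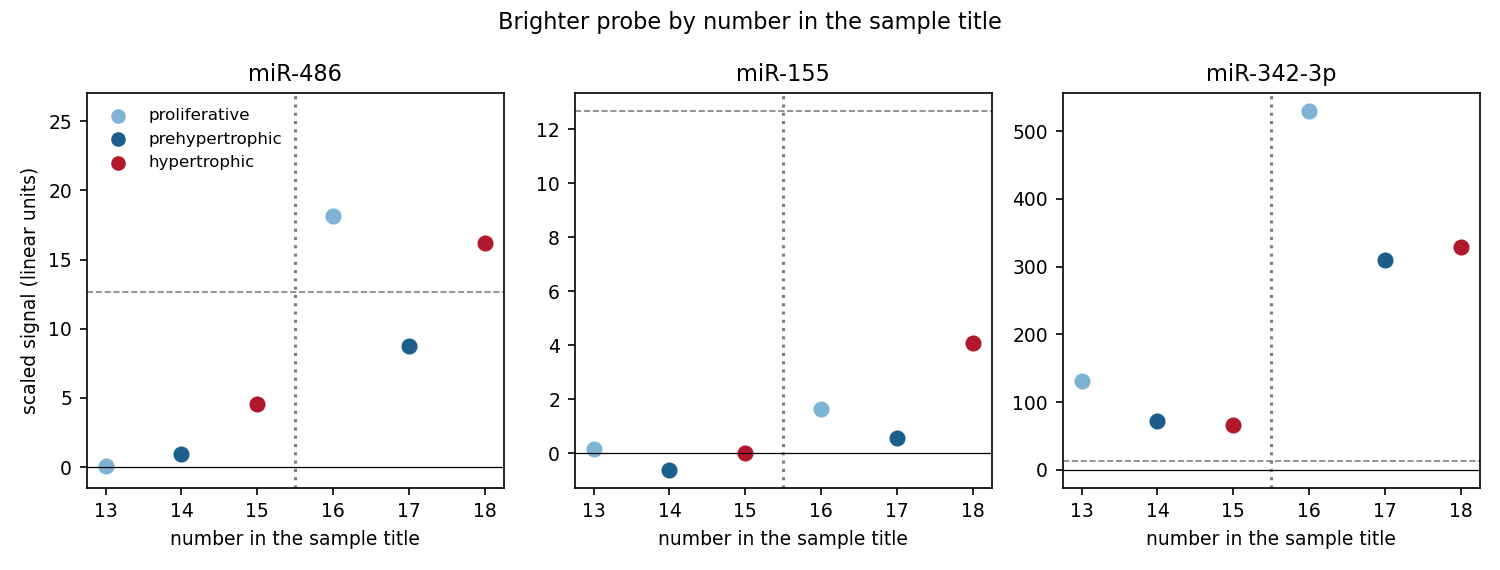
Scaled signal (linear units) of the brighter probe of miR-486, miR-155 and miR-342-3p against the number in the sample title, coloured by zone, with the floor of 12.66 units dashed and a dotted line between the runs of numbers. In each panel the 3 arrays on the right lie above the 3 on the left, with 1 array of each zone on each side.

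The endothelial miR-126-3p was detected on the hypertrophic arrays and on no other. Its brighter probe read -1.60 and -2.75 units on the proliferative, -0.036 and -2.23 on the prehypertrophic and 34.7 and 47.2 on the hypertrophic arrays. The dimmer probe read -2.24, -3.89, -1.22 and -3.49 on the first 4 and 22.1 and 30.7 on the hypertrophic arrays. For the brighter probe, 8 of 8 and 9 of 9 spots were well above background on the hypertrophic arrays, against 0 of 10 on each of the other arrays. The hypertrophic arrays differed from each other by more than their spots did, with an SD over spots of 1.70 and 1.46 units.

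By the brighter probe, miR-126-3p was at least 2.75-fold higher in the hypertrophic than in the proliferative zone (limma adjusted p = 0.00221). Against the prehypertrophic zone it was at least 3.15-fold higher (limma adjusted p = 0.00522). It passed the filter through the hypertrophic arrays alone, where it was bright, so these p-values are no independent support for a difference. Each bound divides the hypertrophic mean by a detection limit of the dimmer arrays, which was the larger of the floor and the weakest detected probe on each. The measured means were 5.34 ± 0.31 on the log2 scale in the hypertrophic zone (SD, n = 2) and 3.66, the floor itself, in the other zones, so the spread of those zones was set by the floor and not measured. Against the proliferative zone the call was lost without the second hypertrophic array (log2 1.45, adjusted p = 0.0769), without the second proliferative array (1.76, adjusted p = 0.0531) and by the dimmer probe (1.04, adjusted p = 0.117). Against the prehypertrophic zone it held without the first proliferative array alone. Without any one of the other 5 arrays the log2 value was 1.45 to 1.89 (adjusted p = 0.0645 without the first and 0.115 without the second hypertrophic array). Adjusted p was 0.197 and 0.238 when a prehypertrophic array was left out, the first or the second, and 0.126 without proliferative array 2. With the slide row as a block the value was 1.68 (adjusted p = 0.101). The block could not change this value, since the row effect rested on the proliferative arrays, which both lay at the floor.

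The other arm of the same hairpin, miR-126-5p, stayed in the background. Its brighter probe read -2.68 and -2.47 units on the proliferative, -2.10 and -2.77 on the prehypertrophic and -2.78 and -1.54 on the hypertrophic arrays. The zones overlapped. Among the dim probes of an array it ranked between percentiles 31.4 and 50.6, at 31.4 and 50.2 on the hypertrophic arrays.

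Of the white cell miRNAs miR-223 alone was detected, and its zones differed far less than those of miR-451. The brighter probe read 12.9 and 13.2 units on the proliferative, 15.7 and 11.8 on the prehypertrophic and 19.4 and 29.8 on the hypertrophic arrays. Both hypertrophic arrays lay above the other 4, which lay around the floor. The hypertrophic minus proliferative log2 difference was 0.88 (SE 0.29, adjusted p = 0.0636). Neither proliferative array was well above background, so the floor enters this size. The hypertrophic minus prehypertrophic difference was 0.77 (SE 0.29, adjusted p = 0.267), and the prehypertrophic minus proliferative one 0.11 (SE 0.29, adjusted p = 0.927). None of these passed. miR-223 entered the fit through the hypertrophic arrays alone, where it was brightest, so these p-values are no independent support for a difference.

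The probes of miR-223 disagreed on the size. By the dimmer one the arrays read 10.49 and 13.6 units in the proliferative, 11.04 and 9.02 in the prehypertrophic and 12.6 and 14.3 in the hypertrophic zone, where proliferative and hypertrophic arrays overlapped, and the log2 difference between these zones was 0.04 (adjusted p = 0.944). The scanner software detected miR-223 on all 6 arrays, as it did 31.6% of the 690 miRNAs. Its total signal was 14.3 ± 2.46 and 13.7 ± 2.72 units (the software's error) in the proliferative, 18.1 ± 2.91 and 14.8 ± 2.79 in the prehypertrophic and 21.6 ± 2.95 and 38.6 ± 4.10 in the hypertrophic zone, before scaling. By that flag miR-223 was the member detected on every array, whereas by the spot call it was detected on 3, both hypertrophic arrays and the first prehypertrophic array.

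The other white cell miRNAs stayed in the background throughout. The brighter probe of miR-142-3p read -2.35 and -2.95 units on the proliferative, -1.22 and -1.62 on the prehypertrophic and 0.453 and 1.66 on the hypertrophic arrays, without overlap between the zones and without a spot well above background. The brighter probe of miR-142-5p, from the other arm of that hairpin, ranged from -6.65 to -3.91 units and that of miR-150 from -5.46 to -2.78 over the 6 arrays. The brighter probe of miR-155 ranged from -0.610 to 4.08 units. Non-overlap among such dim probes was common: of the members' 13 probes well above background on no array, 10 had both hypertrophic arrays above both proliferative arrays, as did 51.2% of the 1416 dim probes. In 7 of the 13 both prehypertrophic arrays lay above both proliferative arrays (24.1% of dim probes), and in 6 both hypertrophic arrays above both prehypertrophic arrays (34.2%). The median dim probe read -2.25 and -2.49 units on the proliferative, -1.65 and -2.35 on the prehypertrophic and -1.44 and -1.56 on the hypertrophic arrays. Whether this difference in background accounts for the order of the members' dim probes was not tested.

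Over all 10 members, by the brighter probe and with no floor, 7 had both hypertrophic arrays above both proliferative ones (35.7% of the 690 miRNAs did) and 0 the reverse (15.4%). The exceptions were miR-486, miR-155 and miR-126-5p. Of the 7, miR-144, miR-142-3p, miR-142-5p and miR-150 were well above background on no array. For these the nearer share is that of the 1416 dim probes, 51.2%. For the hypertrophic against the prehypertrophic arrays the count was 5 of 10 (33.5%), namely miR-451, miR-144, miR-223, miR-142-3p and miR-126-3p. Of these, miR-144 and miR-142-3p were well above background on no array. For the prehypertrophic against the proliferative arrays the count was also 5 of 10 (18.6%), namely miR-451, miR-144, miR-142-3p, miR-142-5p and miR-150, of which miR-451 alone was detected. The reverse held for 0 members in both (15.5% and 15.8%). Of the 3 members that entered the fit, miR-451 and miR-126-3p were called higher in the hypertrophic zone against each other zone. Of all tested miRNAs, 5.75% were called higher against the proliferative and 1.33% against the prehypertrophic zone. Between the proliferative and prehypertrophic zones 0 members were called, as were 2.21% of tested miRNAs. In that contrast miR-451 had an unadjusted limma p under 0.05, as had 29 of the 226 tested miRNAs (12.8%). A member entered the fit only where it was bright in some zone.

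**Figure D4:**
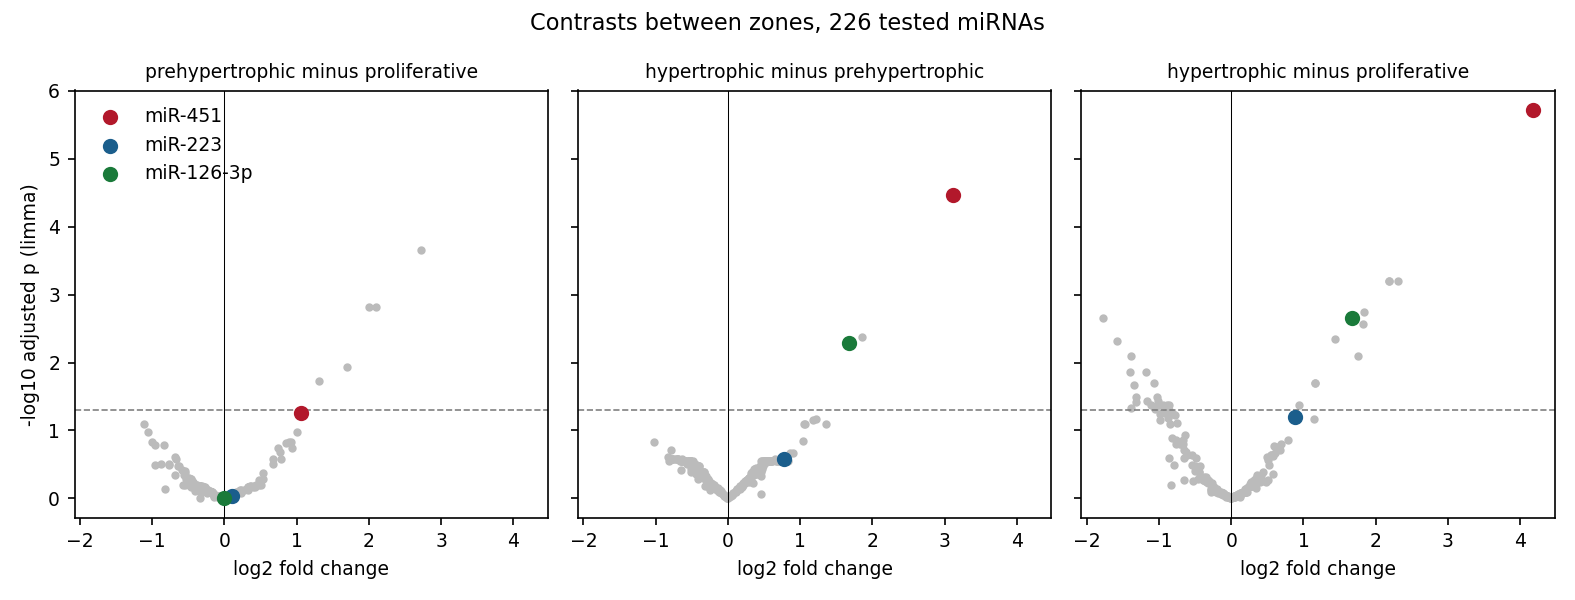
Log2 fold change (x axis) and -log10 adjusted p from limma (y axis) of the 226 tested miRNAs in each contrast, with the 3 tested members coloured and the threshold of 0.05 dashed. miR-451 is the point farthest to the right and highest in both contrasts with the hypertrophic zone and lies just under the threshold between the proliferative and prehypertrophic zones, where miR-126-3p sits at 0.

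Within each run of title numbers the differences between the outer zones, proliferative and hypertrophic, kept their direction. The log2 difference of miR-451 was 4.20 in the run from 13 and 4.16 in the run from 16, that of miR-126-3p 1.90 and 1.45, and that of miR-223 1.20 and 0.55. Each run holds 1 array per zone, so there is no spread within it. Within row 1 of the slide the differences were 4.12, 1.68 and 0.89.

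No other miRNA listed for blood cells or vessel growth was called higher in the hypertrophic zone. Of all tested miRNAs, 5.75% were called higher there against the proliferative and 1.33% against the prehypertrophic zone. Of 6 further blood cell miRNAs 1 was tested, miR-342-3p, which is found in lymphocytes, and 5 were well above background on no array, among them the immune regulator miR-146a. miR-342-3p read 132 and 529 units on the proliferative, 72.0 and 310 on the prehypertrophic and 328 and 66.8 on the hypertrophic arrays. Its values thus followed the title numbers like those of miR-486, and its log2 difference between the outer zones was -0.83 (adjusted p = 0.633). miR-150* was the only other arm of these hairpins on the array apart from the members. It was well above background on 1 array, the first hypertrophic one at 17.9 units. It read 12.9 and 15.4 units on the proliferative, 8.37 and 10.2 on the prehypertrophic and 8.64 on the second hypertrophic array. The scanner software's flag per miRNA detected it on 5 arrays.

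Of 7 miRNAs linked to vessel growth 4 were tested, and none was called higher in any contrast. Of all tested miRNAs, 5.75% were called higher between the outer zones, 2.21% in the prehypertrophic over the proliferative zone and 1.33% in the hypertrophic over the prehypertrophic zone. At such shares 0 of 4 says little about the list. miR-130a, which is known to restrain antiangiogenic homeobox genes in endothelial cells, read 253 and 144 units in the proliferative and 80.03 and 105 in the hypertrophic zone. It was called lower in the hypertrophic zone with a log2 difference of -1.06 (limma adjusted p = 0.0477), as were 8.85% of tested miRNAs. It passed in 4 of 23 other settings, and in 0 of the 6 that left out 1 array (log2 -1.40 to -0.66, adjusted p = 0.0703 to 0.407). miR-221 (-0.86, adjusted p = 0.0565), miR-296-5p (-0.35, adjusted p = 0.483) and miR-378 (0.11, adjusted p = 0.853) did not pass. The median over the 4 was -0.60, beside -0.002 over all tested miRNAs.

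By likeness over the 6 arrays (Pearson correlation of floored log2 signals, a description resting mostly on the hypertrophic pair), the tested miRNAs closest to miR-451 were miR-692 (0.962), miR-126-3p (0.961) and miR-181a (0.959). Closest to miR-126-3p were miR-2132 (0.966), miR-451 (0.961) and miR-692 (0.961), and closest to miR-223 were miR-126-3p (0.939), miR-21 (0.916) and miR-451 (0.896). A member that entered the fit through its hypertrophic arrays had to be bright there, so the likeness among the 3 tested members is partly set by the filter. miR-692 varied only between 3.66 and 3.76 on the log2 scale. These arrays share 1 slide, and the floor gives dim miRNAs equal values, which can raise such correlations.

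**Figure D5:**
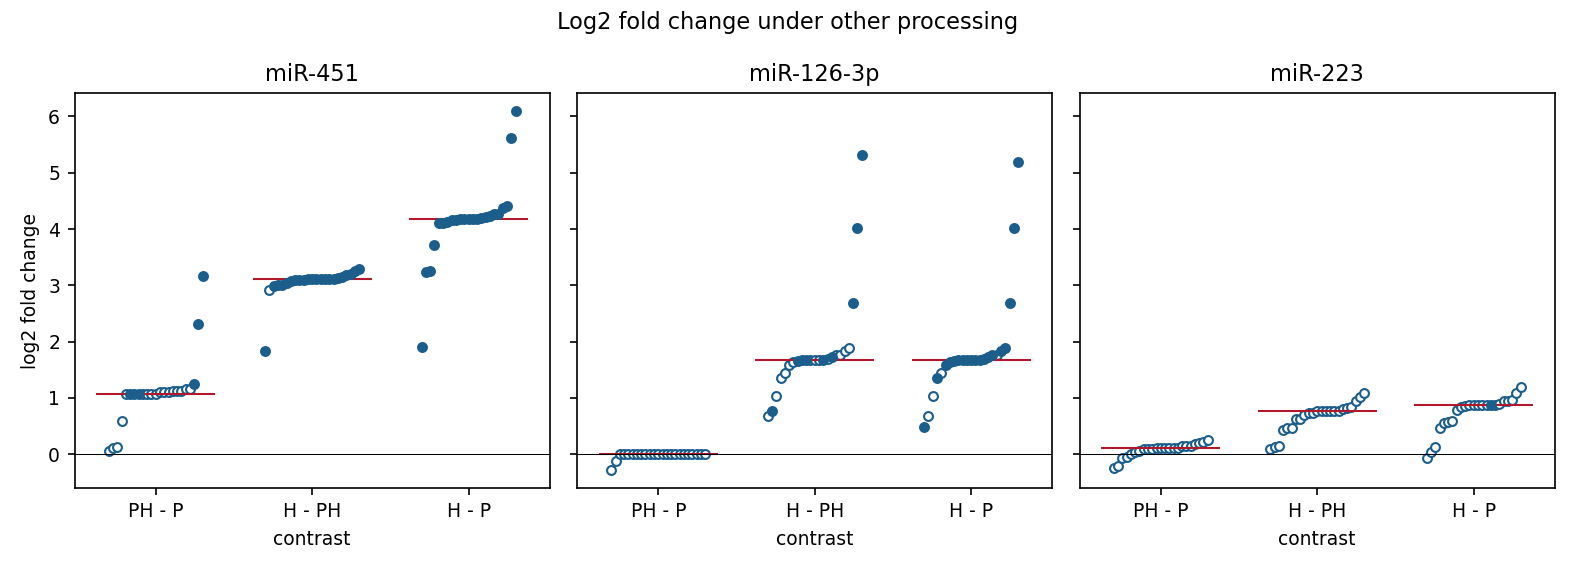
Log2 fold change of the 3 tested members in each contrast (P proliferative, PH prehypertrophic, H hypertrophic) as reported (red bar) and in 23 other settings of the processing (points, sorted; filled where the limma adjusted p was under 0.05). The differences of miR-451 against the hypertrophic zone are called in nearly every setting, those of miR-126-3p in some, and of miR-223 in 1.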

How the data were processed

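Spot intensity was used as deposited, unlogged. Per the file headers, Feature Extraction 10.7.3.1 subtracted a background and flagged outliers and spots well above background. The authors' deposited log2 values departed by at most 1.3e-06 from the logged total gene signal less 1 constant per array, and served as an alternative. The slide was designed from miRBase version 14, per the labels.

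Outlier spots (384 to 515 of 13800 per array) were left out and 0 were saturated. Signals were averaged per probe and scaled to the 75th percentile of the 342 of 1928 probes well above background on all 6 arrays. The floor was the median over arrays of the lowest such signal. The brightest probe stood for a miRNA, and miRNAs for which it was detected in duplicate in at least 1 zone entered lmFit and eBayes of limma 3.58.1 (R 4.3.3; zone as factor, no pairing), which was tested on simulated data. P-values were adjusted by Benjamini-Hochberg over all 226 miRNAs within each contrast. The number of arrays limits the precision. The files hold no mean signal, so normexp (offset 50) used the median signal.

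Members, lists and settings were chosen with earlier results of these data known. All 10 members were to be named, list members where they passed, and the 3 most alike miRNAs. Others named with values (list members that did not pass, miR-671-3p, miR-1946a and miR-124) were chosen after their values were seen.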

Additional observations from a re-analysis of the deposited data

How the results depend on the processing

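Alternatives changed the scaling, floor, background correction, probe, filter, outlier spots, blocks and arrays. The 2 members called between the outer zones (proliferative and hypertrophic) fell to 1 (miR-451) with no filter, 2 times the floor or the second brightest probe, and leaving out 1 array gave 1 to 2. At the first step (proliferative to prehypertrophic) the 0 members called became 1 (miR-451) with the total gene signal, the filter on gene-level detection, 0.5 times the floor, the title-number run as a block or the deposited value table, and stayed at 0 without any 1 array. At the second step (prehypertrophic to hypertrophic) the 2 became 1 (miR-451, except by the value table, where it was miR-126-3p) with the filter on gene-level detection, no filter, 2 times the floor, the mean of all probes, the second brightest probe, the slide row as a block, no scaling, scaling to the 75th percentile of all probes, quantile normalization or the value table, and leaving out 1 array gave 1 to 2. The second brightest probe and the gene-level filter were chosen after seeing the data. miR-223 reversed to -0.06 with normexp between the outer zones, and at the first step to -0.25 with the total gene signal, -0.21 with normexp, -0.05 by the second brightest probe and -0.07 without prehypertrophic replicate 1, where leaving out 1 array gave -0.07 to 0.26. The cause was not tested. miR-451 was called between the outer zones in 23 of 23 settings, with log2 values of 1.90 to 6.09. Over all tested miRNAs the number called between the outer zones ranged from 1 with no filter to 45 with the slide row as a block. Without scaling, the median of all tested miRNAs shifted by 0.46 between the outer zones, by 0.30 at the first step and by 0.14 at the second. The 75th percentile of all probes shifted it by 0.12 at the first step and by -0.12 at the second, and median scaling by 0.11 between the outer zones and 0.13 at the first step. With the title-number run as a block, miR-223 was called between the outer zones (limma adjusted p = 0.0417) and miR-451 at the first step (limma adjusted p = 0.0379), and no other member call changed. For miR-223, which entered the fit through its hypertrophic arrays alone, that call is no independent support for a difference. The labels do not say that these numbers pair the arrays.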

Other observations

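The pattern by title number seen for miR-486 and miR-342-3p was also seen in other miRNAs. Of the 690 brightest probes, 55 had all 3 arrays of numbers 16 to 18 above all 3 of 13 to 15, and 31 the reverse. The mean difference exceeded 1 on the log2 scale for 4 of the first, miR-342-3p among them, and 0 of the second. The largest was that of miR-671-3p, which read 547, 338 and 370 scaled units on the later proliferative, prehypertrophic and hypertrophic arrays and 16.2, 16.3 and 28.4 on the earlier ones. miR-1946a read 61.5, 26.7 and 37.5 units on the later arrays and between -1.28 and -0.063 on the earlier ones. miR-124, a neuronal miRNA, read 36.6, 18.02 and 24.7 units on the later and 0.614, 0.239 and 1.39 on the earlier arrays.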
